A study of Homo sapiens with 2 samples.

Results

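Canonical Polycomb repressive complex 1 (PRC1) is assembled around a RING and PCGF core from 3 kinds of further subunit, and the genes of these subunits are described here in A375 cells, an established line from a human melanoma. The members are the chromobox genes CBX2, CBX6, CBX7 and CBX8, the polyhomeotic genes PHC1, PHC2 and PHC3, and the Sex comb on midleg homologs SCMH1 and SCML2, which makes 9 listed genes. They were taken as the array rows whose symbol in the platform's annotation is in that list. This found 8 of the 9 genes, on 10 rows, out of 16583 named genes. CBX8 had no symbol in that annotation. Its row, NM_020649, was named through its RefSeq accession instead, and its values are given apart.

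RNA of 1 culture of A375 cells that received an empty lentivirus (A375-vector) was compared with RNA of 1 culture that received a lentivirus carrying a short hairpin RNA against BMI1 (A375-shBMI-1). Both groups therefore carry a lentivirus, and they differ in the hairpin. Each RNA was hybridised to 1 single-colour array. With 1 array per group no value below has a replicate error, no test between groups was possible, and the comparison is one of these 2 arrays. Whether the cultures are clones or pools of infected cells is not given in the sources used here. All ratios are log2 of the shBMI-1 intensity over the empty vector intensity.

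PRC1 represses developmental genes through chromatin. In its canonical form, a chromobox protein docks the complex on trimethylated histone H3 through its chromodomain. A polyhomeotic protein links complexes to each other by polymerising through its SAM domain, and the SCM proteins, which also end in a SAM domain, associate with the polyhomeotic proteins. BMI1, the target of the hairpin, is one of the PCGF proteins that hold the chromobox and polyhomeotic subunits on the RING ubiquitin ligase. BMI1 itself read 68.6 on the empty vector array and 25.8 on the hairpin array, a log2 ratio of -1.41 between 2 dim values.

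The promoters of CBX7 and PHC1 are shown because these members had the highest and the lowest ratio among those of adequate signal, and that of CBX6 because it lies near CBX7 on the same chromosome. Each run is the 250 bases before a gene start, 5′ to 3′ on the gene's strand, from the RefSeq promoter table of GRCh38.p14, with every CG dinucleotide in capitals. The CBX7 window is chr22:39152681-39152930 on the minus strand, and the CBX6 window is chr22:38872217-38872466 on the minus strand. PHC1 has 2 starts in that table, with windows chr12:8913593-8913842 and chr12:8914259-8914508 on the plus strand, and the array data do not tell which start was used.
CBX7: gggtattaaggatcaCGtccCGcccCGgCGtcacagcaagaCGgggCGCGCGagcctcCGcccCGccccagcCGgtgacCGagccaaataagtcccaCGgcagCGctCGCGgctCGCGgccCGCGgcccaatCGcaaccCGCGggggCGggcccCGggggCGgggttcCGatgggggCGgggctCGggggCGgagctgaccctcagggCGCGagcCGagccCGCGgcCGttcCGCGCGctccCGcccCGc
CBX6: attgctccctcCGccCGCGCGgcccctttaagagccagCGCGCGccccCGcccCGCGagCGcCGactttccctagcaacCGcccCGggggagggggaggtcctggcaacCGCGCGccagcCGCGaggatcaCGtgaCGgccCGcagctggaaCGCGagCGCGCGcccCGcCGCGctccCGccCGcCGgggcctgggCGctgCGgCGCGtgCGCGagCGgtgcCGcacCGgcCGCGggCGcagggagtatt
PHC1, first start: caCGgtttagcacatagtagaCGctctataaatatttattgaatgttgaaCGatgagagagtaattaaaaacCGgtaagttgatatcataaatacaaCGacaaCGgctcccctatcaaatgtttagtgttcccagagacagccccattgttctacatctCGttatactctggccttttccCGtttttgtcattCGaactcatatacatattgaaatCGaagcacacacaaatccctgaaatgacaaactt
PHC1, second start: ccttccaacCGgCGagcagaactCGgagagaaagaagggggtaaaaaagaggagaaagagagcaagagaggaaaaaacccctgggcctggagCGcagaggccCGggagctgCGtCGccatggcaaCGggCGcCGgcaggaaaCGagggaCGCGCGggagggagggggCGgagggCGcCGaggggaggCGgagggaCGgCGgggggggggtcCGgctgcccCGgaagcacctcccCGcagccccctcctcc
The table held windows for 7 of the 9 listed genes, 9 windows in all. The windows of 1 chromosome, which holds no member, were left out, and all windows here means the 35116 that remained. CBX7 had 41 CG dinucleotides, more than 98.3% of these 35116 windows, and CBX6 had 45, more than 99.4%. The first PHC1 window had 10, close to the median of 11 over all windows, and the second had 23. The letters CACGTG, which read the same on both strands, occurred in the window of CBX6, in that of PHC3 and in 1 of the windows of PHC2, and in 6.34% of all windows. These counts describe the letters in the windows and say nothing of any factor bound there.

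Over the 45033 rows the median intensities of the vector and hairpin arrays were 131.2 and 129.8. A gene was taken as above the brightness limit if the mean log2 value of its rows reached the array median on at least 1 array, and 8921 genes did. The only error that could be measured is the row SD, which pools how far the ratios of different rows of one gene spread at a like intensity. It was 0.76 on the log2 scale at mean intensities of 64 to 128 and 0.25 at 1024 to 2048, and it can hold real differences between transcripts. It leaves out any culture, infection or array effect that moves all rows of a gene together, so it is no replicate error. Of 10 melanoma and melanocyte markers measured, SOX10, S100B, S100A1, MIA and VIM were above the limit on these arrays. MITF and the pigment genes TYR, TYRP1, MLANA and PMEL were under it on both. The summed intensity of these 10 markers, most of it from VIM, was 48744 and 49077. Of the dim ones, MITF read 32.0 and 72.8 and PMEL 22.5 and 51.8, with log2 ratios of 1.19 and 1.20. Of markers of other cell types, the 3 leukocyte, 3 endothelial and 4 fibroblast genes were all under the limit. The keratin genes KRT5 and KRT14 were above it, and the 4 epithelial markers summed to 1141 with the vector and 1450 with the hairpin. That sum is carried by the keratins, while EPCAM read 55.5 and 17.2 and CDH1 15.3 and 14.1. The part of these markers in the results was not tested.

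Of the 8 members, 5 were above the brightness limit: CBX6, CBX7, PHC1, PHC2 and SCMH1, each of them on both arrays. None of these 5 differed by 2-fold, where 6.78% of all genes above the limit did. CBX7 was higher and PHC1 lower by at least 1.5-fold, where 10.1% of all genes above the limit were that much higher and 8.45% that much lower, 18.6% together. Among genes that reached the median on both arrays, as these 5 did, the shares were 2.24% past 2-fold and 11.1% past 1.5-fold. The ratios of the 5 members ran from -0.63 to 0.60 with a median of 0.14, beside a median of 0.09 over all genes above the limit. Ratios were positive in 4 of the 5, beside 60.0% of all genes above the limit. The share of 2 in 5 past 1.5-fold is larger than either background, but it rests on 2 ratios that lie just past the line.

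**Figure D1:**
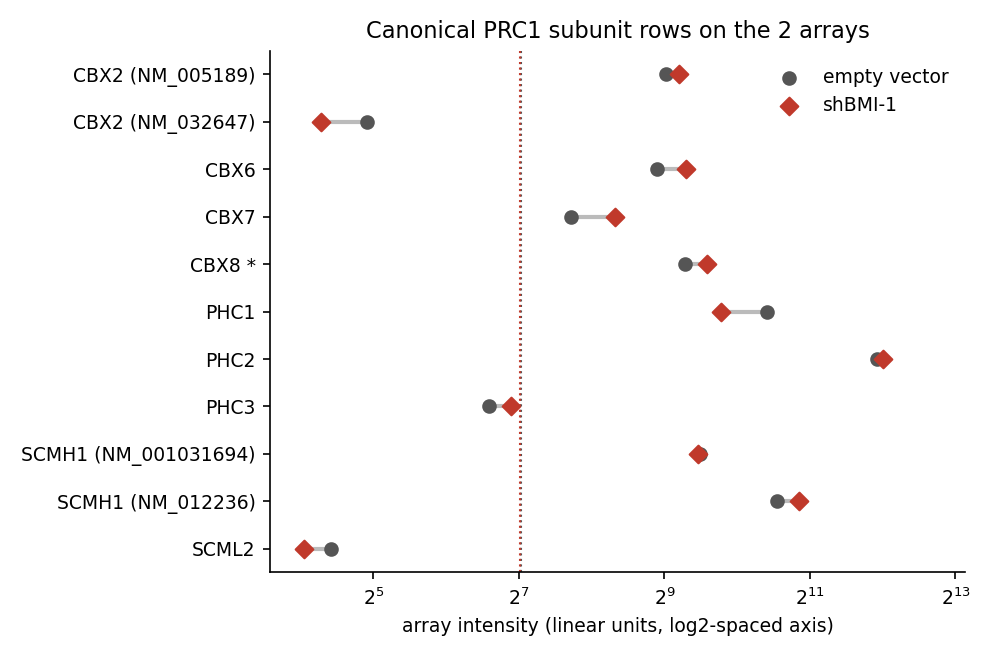
Array intensity (log2-spaced horizontal axis, linear intensity values) of each row of the canonical PRC1 subunits with the empty vector (circles) and with shBMI-1 (diamonds), 1 array each; dotted lines mark the median of all rows on each array, and the asterisk marks CBX8, named by accession. CBX7 moved from 211 to 320 and PHC1 from 1363 to 882, while the second CBX2 row, PHC3 and SCML2 lay under the medians on both arrays.

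The chromobox subunits are the readers of the complex. CBX7, which is best known for helping to repress the INK4 locus, read 211 with the vector and 320 with the hairpin. It was thus 1.52-fold higher, a log2 ratio of 0.60, and 89.6% of the 1826 genes of its intensity band had a lower ratio. The row SD of that band, 256 to 512, was 0.42. Its geometric mean of 260 lay at the lower edge of the band, and in the band below, 128 to 256, the row SD was 0.60, about as large as the ratio itself. The size of the CBX7 ratio also sat at the 1.5-fold line (0.58 on the log2 scale). It was 0.56 after quantile normalization, 0.55 after loess normalization and 0.50 with a pseudocount of 50, each short of that line.

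CBX6, a chromobox protein less studied than its relatives, read 478 with the vector and 628 with the hairpin. Its log2 ratio of 0.39 was 1.33 times the row SD of 0.30 at its level and was short of 1.5-fold. CBX8, a chromobox protein that is part of many canonical complexes, read 622 and 767 in its accession-named row, a log2 ratio of 0.30 at a row SD of 0.30. Its difference was therefore about as large as the usual spread between rows of one gene.

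CBX2, which can compact nucleosomes, had 2 rows that went opposite ways. Row NM_005189 read 523 with the vector and 591 with the hairpin, a log2 ratio of 0.18 at a row SD of 0.30. Row NM_032647, which stands for a shorter transcript variant, read 30.03 and 19.5, a log2 ratio of -0.62 at a row SD of 0.74. The first row was near the 75th percentile of both arrays and the second under the 20th, so the dim row carries the larger ratio. The mean of both rows put CBX2 at -0.22 and under the brightness limit, while its brighter row alone was above 0 and above the limit. The sign for CBX2 thus depends on the row that is read.

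Among the rows above the median on both arrays, all 4 rows of chromobox members had a ratio above 0, one each of CBX2, CBX6, CBX7 and CBX8. They ran from 0.18 to 0.60 with a median of 0.35. These rows were grouped after their values were seen. The chromobox genes CBX1, CBX3 and CBX5, which are not members and are given below, were also above the median on both arrays, with ratios below 0. Of all genes above the limit, 60.0% had a positive ratio, and the ratio of this CBX2 row was within its row SD and that of CBX8 was about equal to it. In the RefSeq gene table of GRCh38.p14, CBX2 and CBX8 are direct neighbours on chromosome 17, with 0 other protein-coding genes between them. CBX6 and CBX7 lie on chromosome 22 with 7 protein-coding genes between them.

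The polyhomeotic subunits carry the SAM domain through which canonical PRC1 clusters. PHC1 read 1363 with the vector and 882 with the hairpin, 1.55-fold lower, with a log2 ratio of -0.63. This was 2.53 times the row SD of 0.25 at its level. Of the 1203 genes in the same intensity band, 1.33% had a lower ratio and 5.82% passed 1.5-fold either way. Over all genes above the limit, 7.75% had a lower ratio. The geometric mean of PHC1, 1097, lay near the lower edge of its band, 1024 to 2048. In the band below, 512 to 1024, the row SD was 0.30 and 10.8% of genes passed 1.5-fold. PHC1 was the only one of the 8 members whose ratio exceeded 2 row SDs, as deposited. It kept a ratio of at least 1.5-fold in size under every scaling and row rule tried, from -0.60 with a pseudocount of 50 to -0.71 after loess normalization. PHC1 has 1 row on the array, so no other row of the gene bears on the value. The RefSeq table also lists a pseudogene, PHC1P1, on the same chromosome, and whether its transcripts reach the PHC1 probes was not tested.

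PHC2, a polyhomeotic subunit of broad expression, read 3878 with the vector and 4122 with the hairpin. Its log2 ratio of 0.09 was within the row SD of 0.23 and equalled the median of all genes above the limit. It stayed positive under each scaling and row rule tried, from 0.00068 after quantile normalization to 0.10 after median centring. PHC3, the third paralog, read 96.4 and 118.8, under the array median on both arrays, with a log2 ratio of 0.30 at a row SD of 0.76. The 3 polyhomeotic genes therefore gave 3 different readings: one lower beyond its row SD, one level, and one too dim for its ratio to stand out from the row SD.

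**Figure D2:**
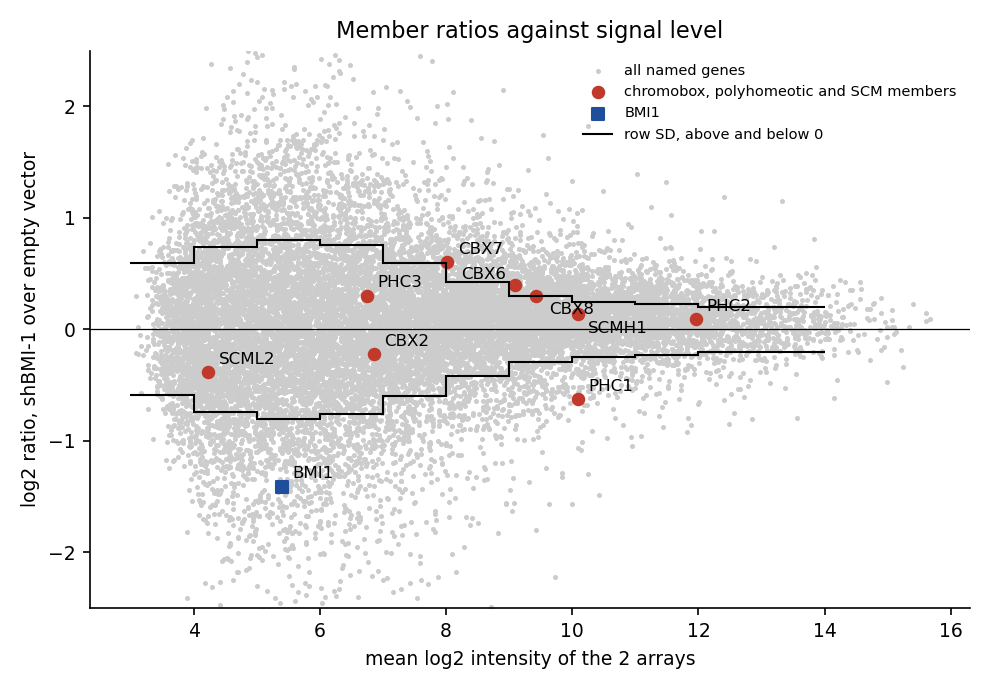
Log2 ratio of shBMI-1 over empty vector (vertical axis) against the mean log2 intensity of the 2 arrays (horizontal axis) for all named genes (grey), the canonical PRC1 subunits (red) and BMI1 (blue square); steps mark the row SD above and below 0, and 78 genes lie beyond the vertical axis. PHC1, at -0.63, lies outside the steps at a level where the row SD is 0.25, and CBX6, CBX7 and BMI1 also lie outside them. CBX8 lies about at the step, while CBX2, PHC2, PHC3, SCMH1 and SCML2 lie inside.

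The SCM homologs pair MBT repeats, which bind methylated lysines, with a SAM domain. SCMH1 had 2 rows, both bright. Row NM_012236 read 1498 with the vector and 1840 with the hairpin, a log2 ratio of 0.30 at a row SD of 0.25. Row NM_001031694 read 718 and 705, a log2 ratio of -0.03 at a row SD of 0.30. The rows thus differed in sign, with one beyond its row SD and one near 0, and their mean was 0.14. SCML2, whose expression is best known from the male germline in the mouse, read 21.5 and 16.5. Only 12.6% and 7.33% of the rows of these arrays were dimmer, and the log2 ratio of -0.38 was within the row SD of 0.74. No limit of detection was given in the values used here, so whether SCML2 was above background is unknown.

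With dim genes kept in, 5 of all 8 members were on the positive side and 3 on the negative, beside 55.2% of all named genes with a positive ratio. Their median was 0.11, and 5 of the 8 had a ratio smaller than their row SD. The 3 members under the limit, CBX2, PHC3 and SCML2, ran from -0.38 to 0.30. Adding CBX8 gave 6 of 9 above 0 with a median of 0.14.

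**Figure D3:**
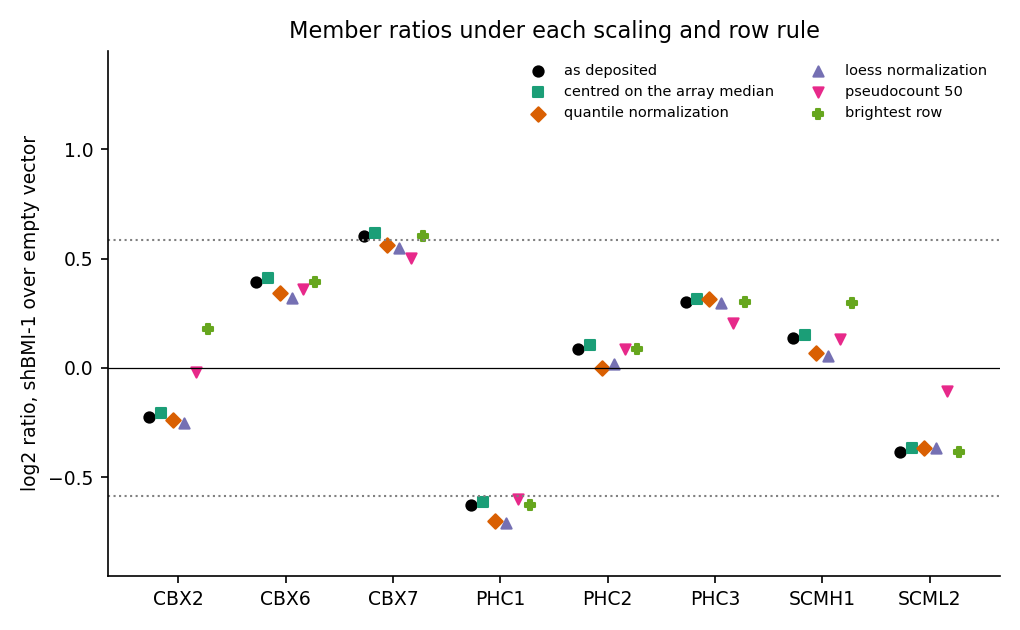
Log2 ratio of shBMI-1 over empty vector (vertical axis) of each of the 8 members as deposited and under 5 other scalings or row rules (symbols); dotted lines mark 1.5-fold. PHC1 stayed between -0.71 and -0.60 and CBX7 between 0.50 and 0.62, while CBX2 ran from -0.25 to 0.18 and SCMH1 from 0.05 to 0.30.

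The other genes of the Polycomb system were read on the same scale to place the members. In 6 related lists, 42 genes were above the brightness limit, with 1 at least 1.5-fold higher, 3 at least 1.5-fold lower and a median of 0.02. These 4 of 42 stand beside the 18.6% of all genes above the limit that passed 1.5-fold, the background for each list below. Of the related genes that reached the median on both arrays, 3 of 41 passed 1.5-fold, beside 11.1% of all such genes. The RING and PCGF core, which holds the canonical subunits, had 7 of 8 listed genes measured. Of these, 5 were above the limit, none of them past 1.5-fold. Their ratios ran from -0.004 for RING1, a catalytic RING subunit, to 0.27 for PCGF6, and PCGF2, the closest paralog of BMI1, had 0.17. Under the limit were BMI1 (-1.41, row SD 0.80) and PCGF5 (-0.58, row SD 0.74). In the intensity band of BMI1, 32 to 64, 46.1% of genes passed 1.5-fold. Of the relatives with SAM or MBT domains, 3 genes were above the limit, from -0.14 for L3MBTL2 to -0.002 for SAMD11. In the variant PRC1 list, whose complexes lack chromobox and polyhomeotic subunits, none of 15 genes above the limit passed 1.5-fold. These 15 ran from -0.29 for the histone deacetylase gene HDAC2 to 0.34 for CKS2. Under the limit were RYBP (-0.80, row SD 0.76) and AUTS2 (1.01, row SD 0.74).

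PRC2 places the histone methylation that chromobox proteins read. Of its 9 genes above the limit, 1 was at least 1.5-fold higher and 2 were lower. RBBP4, a histone-binding subunit, went from 647 to 1016 (0.65, row SD 0.30), and JARID2, a recruiting cofactor, went from 1005 to 553 (-0.86, row SD 0.30). EZHIP, an inhibitor of the PRC2 enzyme, went from 488 to 262 (-0.89, row SD 0.42). The catalytic subunit genes EZH2 and EZH1 had ratios of -0.06 and 0.22, both smaller in size than those of PHC1 and CBX7. The HP1 chromobox genes, which read a different histone H3 mark from that of the Polycomb chromobox genes, were CBX1 at -0.03, CBX3 at -0.03 and CBX5 at -0.24. Their list of 6 genes above the limit had none past 1.5-fold, and its highest ratio was that of the chromodomain gene CDYL (0.51, row SD 0.60). Among genes linked to removal of ubiquitin from histone H2A, 4 were above the limit, and ASXL2 was lowest, from 339 to 32.1 (-3.40, row SD 0.76). ASXL2 passed the limit through the empty vector array alone, the one on which it was brighter, and USP21 was highest at 0.20.

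**Figure D4:**
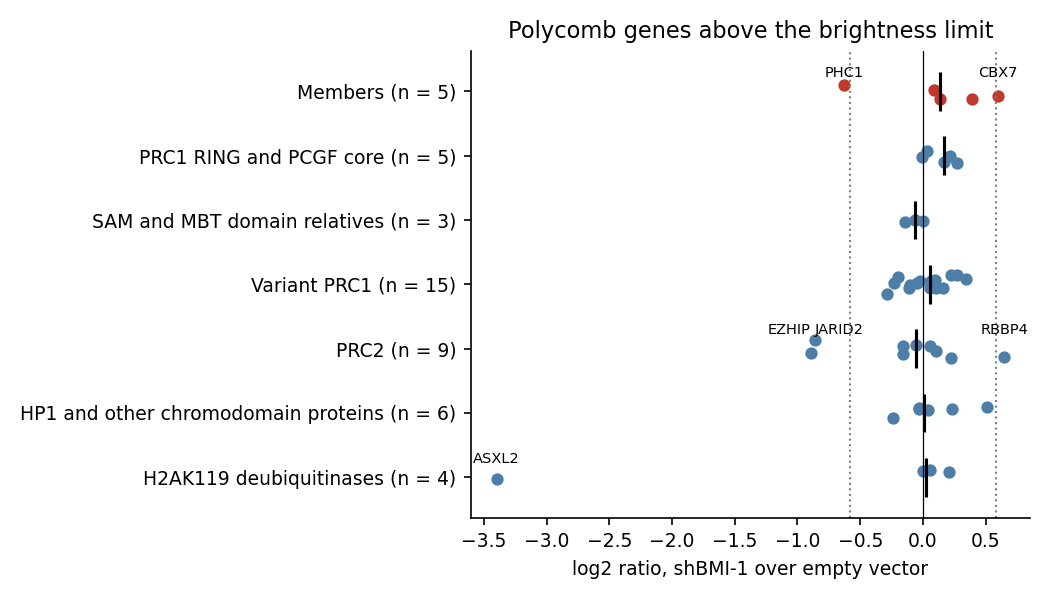
Log2 ratio of shBMI-1 over empty vector (horizontal axis) of the members and of 6 related lists, 1 point per gene above the brightness limit; vertical bars mark list medians, dotted lines mark 1.5-fold, and vertical scatter within a list has no meaning. The 5 members ran from -0.63 to 0.60, and of the 42 related genes the 4 past 1.5-fold were RBBP4, JARID2, EZHIP and ASXL2.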

How the data were processed

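The authors deposited linear intensity values of 45033 rows on 2 arrays. Per the labels' protocols, cDNA made with an oligo-dT primer was labelled with Cy3 for NimbleGen arrays. How the arrays were scanned, summarised into rows and normalised is not given in the sources used.

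Rows were named by the platform's annotation (18188 rows), and CBX8 by matching its row accession to the RefSeq gene table. Both namings matched in all 18185 rows that had both. The symbols compared came from the same RefSeq gene table, so the match is no independent check on the CBX8 row. Values were used as deposited, as log2 with no pseudocount, and rows of a gene were averaged on that scale. The row SD was computed in doubling bands of mean intensity with at least 20 genes of several rows. No test was run. All members are named in full. Of each related list, the genes above the brightness limit with the highest and lowest ratio are named, and those above it past 1.5-fold. EZH1, EZH2, PCGF2, CBX1 and CBX3 were added after their values were seen. Of genes under the limit, BMI1 is named as the hairpin's target. PCGF5, RYBP and AUTS2 are named as the other measured genes of their lists under it, and dim genes of the remaining lists are not named. The members and lists were chosen with earlier results of these data known. The calculations were tested on simulated data. Alternatives were median centring, quantile and loess normalization (span 0.3 and 3 iterations), the brightest row, a pseudocount of 50 and other brightness limits. Naming by accession was an alternative chosen after seeing the data. Python 3.11.15, numpy 2.4.6, pandas 2.3.3, statsmodels 0.14.6 and matplotlib 3.10.9 were used.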

Additional observations from a re-analysis of the deposited data

How the results depend on the processing

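Of the members above the brightness limit, 2 passed 1.5-fold as deposited. The count was 1, PHC1 alone, after quantile or loess normalization and with a pseudocount of 50, where CBX7 was just short of the line, and under a limit at the 75th percentile, which CBX7 did not reach. No member passed 2-fold under any of the alternatives. The member median ran from 0.05 after loess normalization to 0.24 with the brightest row. The related lists had 4 genes past 1.5-fold as deposited, 12 of 62 genes with no brightness limit (27.3% of all genes) and 2 of 31 under the limit at the 75th percentile (8.58% of all genes), because the limit sets how many dim genes are counted. Their median of 0.02 was -0.03 after quantile normalization and -0.04 after loess normalization. All 40 values of single members under the scalings and row rules moved by less than their row SD, CBX2 included, although its sign turned with the brightest row. No paired analysis was possible because each group had 1 array, and leaving out an array leaves no comparison. The number of arrays limits the precision, and without background values no limit of detection could be set for PHC3, SCML2 or the dim CBX2 row.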

Other observations

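The 7 protein-coding genes between CBX6 and CBX7 in the RefSeq table are the APOBEC3 cytidine deaminases, which restrict viruses and retroelements, and all 7 were measured. Of these, 5 had a log2 ratio above 0, beside 55.2% of all named genes, and their median was 0.41. APOBEC3B went from 2795 with the empty vector to 3819 with shBMI-1 (0.45, row SD 0.23), and APOBEC3C from 2310 to 3071 (0.41). APOBEC3G went from 1940 to 2561 (0.40), APOBEC3D from 539 to 804 (0.58) and the dim APOBEC3H from 23.0 to 35.0. APOBEC3A was level at 1441 and 1416, and APOBEC3F, on 2 rows, had a ratio of -0.40. The genes at either end of the cluster, CBX6 and CBX7, had 0.39 and 0.60. The APOBEC3 genes are close paralogs whose signals may be shared between probes, so they are uncertain as separate measurements, and the set was looked at after the member values were known.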
